A study of Bos taurus with 16 samples.

Results

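The calgranulins S100A8, S100A9 and S100A12 were followed in whole blood of 16 crossbred beef steers, 3 genes of the 27607 listed in the deposited tables. They were chosen by name and not by their values, as ENSBTAG00000012640 (S100A8), ENSBTAG00000006505 (S100A9) and ENSBTAG00000012638 (S100A12). Earlier results of these data were known when the genes and tests were chosen. All 3 had counts in every steer and passed the filter on low counts together with 13262 other genes. No table used here pairs the identifiers with symbols, so the names are those under which the genes were chosen. Residual feed intake (RFI) is measured intake less the intake predicted from body weight and gain. The steers were growing animals on 1 high-forage ration, and 8 of them are labelled with a high and 8 with a low RFI, the ends of a larger herd. Each steer gave 1 library from blood of several days, pooled before extraction, with ribosomal and globin RNA removed by a kit made for human, mouse and rat. Age, pen and breed of each steer are not given in the sources used here.

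S100A8, S100A9 and S100A12 are small calcium-binding proteins of the S100 family, stored in large amounts in the cytosol of neutrophils and, at lower levels, of monocytes. S100A8 and S100A9 pair to form calprotectin, which withholds zinc and manganese from microbes, and S100A12, or calgranulin C, binds metals in a similar way. Released from activated or dying cells, they act as alarm signals, S100A8 and S100A9 mainly through TLR4 and S100A12 through the receptor RAGE. In the RefSeq table of ARS-UCD2.0, a later assembly than the ARS-UCD1.2 of the files, the genes lie side by side in the order S100A8, S100A12 and S100A9, with 0 other genes listed between them.

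The titles of the steers labelled high-RFI begin with HFE and carry the numbers 9 to 16, and those of the steers labelled low-RFI begin with LFE and carry 1 to 8. The sequencing list of the study appears to name the groups the other way round. This is inferred from read totals only, and holds if its lines follow the steer numbers. Taken line by line, total counts rose with listed reads when steers 1 to 8 were set against its high-RFI libraries, with a Pearson r of 0.940 (p = 0.000248 by exact permutation) that was 0.907 without the 2 farthest libraries. The Spearman rho was 0.976 (p = 0.000397 by exact permutation). For steers 9 to 16 set against its low-RFI libraries r was 0.958 (p = 7.44e-05 by exact permutation), 0.871 without the 2 farthest, and rho was 0.976 (p = 0.000397 by exact permutation). With libraries paired by group name, r was -0.233 and -0.297 (exact permutation p = 0.571 and 0.472), 0.479 and 0.0394 without the 2 farthest, and rho was -0.214 and -0.190 (exact permutation p = 0.619 and 0.665). The adjusted p over these 8 coefficients was at most 0.000794 for the first pairing and 0.665 for the second. Every direction below is that of the sample labels and would turn round under the names of the list, if the first pairing is right. Depth was 4.80 to 12.2 M counts on genes per steer. Steers 14 and 16, both labelled high-RFI, stood apart, steer 14 with the lowest S100A9 and S100A12 and steer 16 with the highest level of all 3 genes, and the comparisons, correlations, ratios and measures of spread are also given without them.

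Per unit of gene length, S100A12 was the most abundant of the 3 transcripts and S100A8 the least. Levels per length are FPKM, which the authors calculated from counts divided by a size factor per steer. S100A12 had 716 ± 254 FPKM (SD, n = 16), rank 76 of 27607 genes by mean FPKM. S100A9 had 299.9 ± 140.0 FPKM (SD, n = 16), rank 219. S100A8 had 117 ± 55.9 FPKM (SD, n = 16), rank 585. The order S100A12, S100A9, S100A8 held in all 16 steers. The length behind the FPKM of S100A8, 1101 bp, is longer than the whole RefSeq gene of 982 bp in the later assembly. With 982 bp its FPKM would be 12.1% higher, and S100A9 would still lie above it in 16 of 16 steers. The lengths behind S100A9 and S100A12 were 1122 and 719 bp. Together the 3 genes took 0.0975 ± 0.0357% of the counts on genes (SD, n = 16), from 0.0447% in steer 14 to 0.185% in steer 16.

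**Figure D1:**
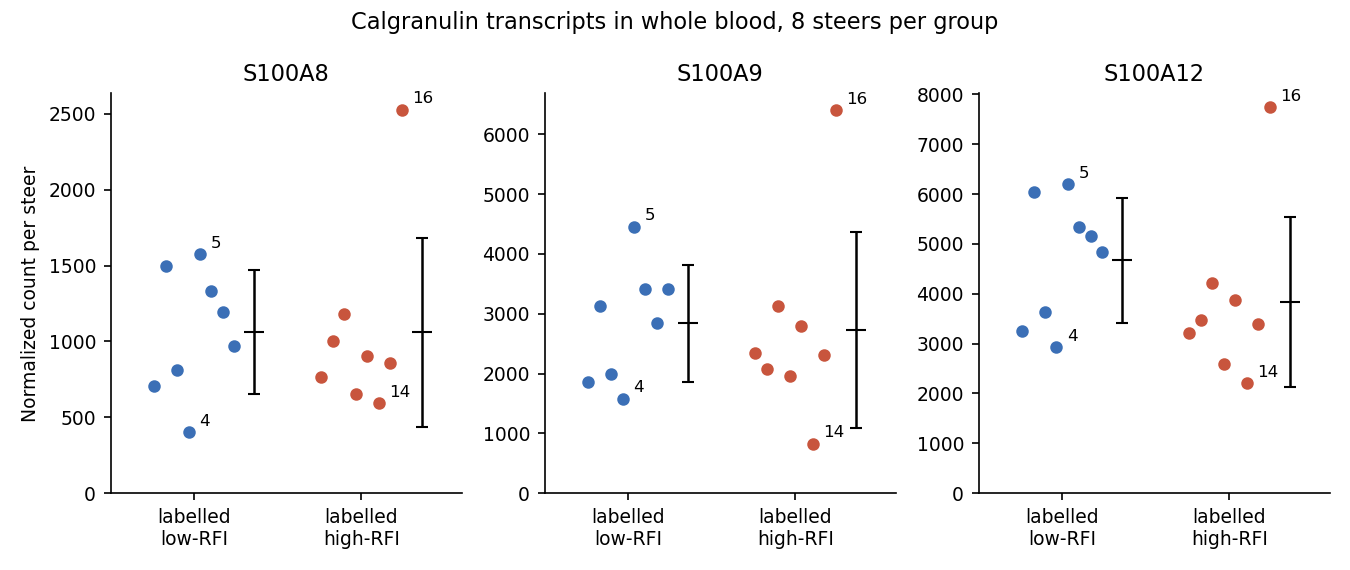
Normalized counts of S100A8, S100A9 and S100A12 in each steer (vertical axes, linear from 0), by label (horizontal axis, 8 steers each), with the mean and SD of each group as a black bar and steers 4, 5, 14 and 16 numbered. Steer 16 is the highest of all steers in all 3 panels, with 2529, 6401 and 7738 normalized counts, and the groups overlap in each.

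Normalized counts are raw counts divided by the authors' size factor, and they compare steers for 1 gene. S100A8, the smaller partner in calprotectin, ranged from 595 over a median of 880 to 2529 normalized counts in the steers labelled high-RFI. In those labelled low-RFI it ranged from 402 over 1085 to 1578. The groups overlapped nearly completely, and of the high-RFI label steer 16 alone exceeded the whole low-RFI range. The means were 1061 ± 622 (SD, n = 8) and 1063 ± 411 (SD, n = 8).

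S100A9, the other partner, ranged from 829.4 over 2319 to 6401 normalized counts in the steers labelled high-RFI and from 1582 over 2990.4 to 4456 in those labelled low-RFI. Steer 16 exceeded and steer 14 fell short of the whole low-RFI range, so that the high-RFI label held both the highest and the lowest value. The means were 2727 ± 1631 (SD, n = 8) and 2836 ± 972 (SD, n = 8).

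S100A12, the ligand of RAGE, ranged from 2207 over 3435 to 7738 normalized counts in the steers labelled high-RFI. In those labelled low-RFI it ranged from 2931 over 5002 to 6197. Steers 12 and 14 fell short of and steer 16 exceeded the whole low-RFI range, and the other 5 steers labelled high-RFI lay within the range of the other group. The means were 3841 ± 1702 (SD, n = 8) and 4676 ± 1254 (SD, n = 8).

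None of the 3 genes passed a test between the labels, and all differences lay within the spread between steers. By edgeR's quasi-likelihood test, with p adjusted by Benjamini-Hochberg over 13265 genes, the log2 fold change of high-RFI over low-RFI was -0.010 for S100A8 (adjusted p = 0.999), -0.063 for S100A9 (adjusted p = 0.999) and -0.29 for S100A12 (adjusted p = 0.990). At FDR 0.05 edgeR called 0 of the 3, and 0 of all genes tested, 0%. At an unadjusted p under 0.05 it called 0 of the 3, against 693 of all genes, 5.22%, of which those lower with the high-RFI label made up 2.45% of genes tested. The fitted change was below 0 for all 3, as it was, without a test, for 49.4% of genes. DESeq2 called 0 of the 3 at FDR 0.05, against 7 of 21016 genes, 0.0333%, and 0 of the 3 at an unadjusted p under 0.05, against 4.1% of genes. Its standard errors were 0.30 for S100A8, 0.30 for S100A9 and 0.23 for S100A12.

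What the 16 steers leave possible is shown by the 95% intervals of the difference in log2 normalized counts, from two-sided exact permutation over the 12870 ways to assign the labels. These are differences of mean log2 values, in which 1 very high steer weighs less than in edgeR's comparison of mean counts. For S100A8 the interval ran from -0.71 to 0.68 around a difference of -0.037 (exact permutation p = 0.914), a ratio of 0.611 to 1.6. For S100A9 it ran from -0.89 to 0.54 around -0.18 (exact permutation p = 0.622), a ratio of 0.540 to 1.45. For S100A12 it ran from -0.83 to 0.19 around -0.33 (exact permutation p = 0.188), a ratio of 0.563 to 1.14. All 3 intervals held 0.

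Steer 16 set much of these values. Without it the log2 fold change in edgeR was -0.32 for S100A8, -0.36 for S100A9 and -0.51 for S100A12, each short of FDR 0.05. S100A12 then had an unadjusted p of 0.0109 in edgeR, in a fit where 4.24% of all genes fell under 0.05, and an exact permutation p of 0.0272. Without both steers 14 and 16 its log2 fold change was -0.43, with an unadjusted p of 0.0235 in edgeR (4.71% of all genes under 0.05) and an exact permutation p of 0.0599. Both steers were singled out for their extreme values of these same genes. Leaving out the highest value of a label lowers its mean in any case, so these p-values do not test the labels. The fold change of S100A8 was too near 0 to have a direction, turned positive without any 1 of steers 2, 5, 6, 7, 9, 10, 12, 13, 14 and 15, and was at most 0.093. That of S100A9 turned to 0.075 without steer 14 and to 0.060 without steer 5.

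**Figure D2:**
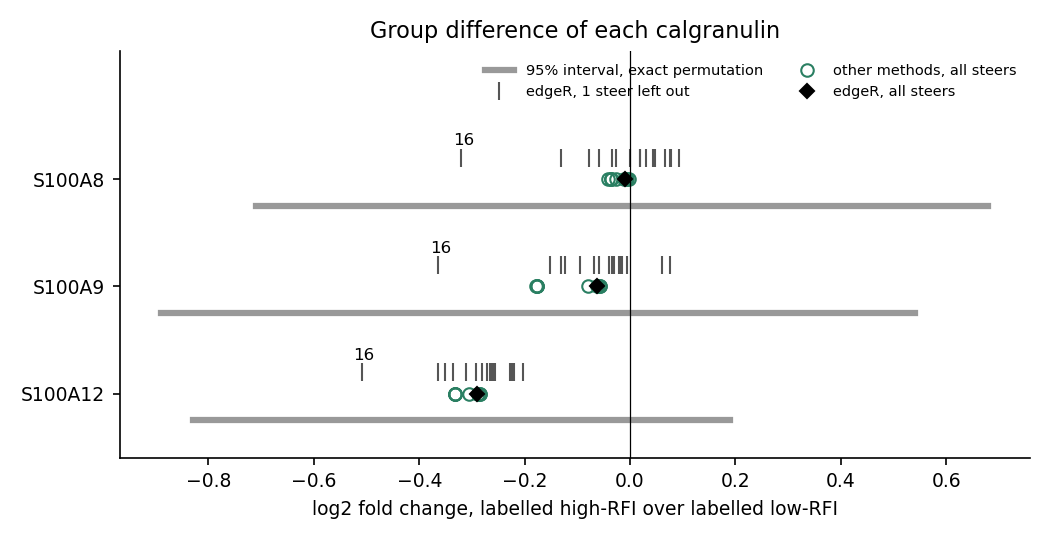
Log2 fold change of steers labelled high-RFI over low-RFI (horizontal axis) for each calgranulin, from edgeR with all steers (diamond), 9 other settings (circles) and edgeR without 1 steer (ticks, steer 16 numbered), with the 95% interval from exact permutation (grey bar). All 3 intervals hold 0, and the tick farthest to the left is that without steer 16, at -0.32, -0.36 and -0.51.

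The transcripts varied far more between steers than counting error gives. Highest over lowest normalized count was 6.29 for S100A8, 7.72 for S100A9 and 3.51 for S100A12. The Poisson 95% interval of a raw count had a half-width of at most 12.6% for S100A8, in steer 4 with 250 counts, 7.37% for S100A9 and 4.62% for S100A12. These intervals cover counting error only. The SD of log2 normalized counts over the 16 steers was 0.63 for S100A8, 0.67 for S100A9 and 0.50 for S100A12, against a median of 0.25 over all genes tested. Among the 3287 tested genes with a mean normalized count of at least 500, S100A8 was more variable than 96.1% of genes, S100A9 than 96.9% and S100A12 than 92.9%. The biological coefficient of variation, the spread left in edgeR after counting error and group, was 42.6% for S100A8, 43.4% for S100A9 and 32.2% for S100A12, with a median of 16% over all genes. Part of this spread came with steers 14 and 16. They were picked for their extreme values, and leaving out such steers tends to lower spread in any case. Without both, highest over lowest was 3.92 for S100A8, 2.82 for S100A9 and 2.39 for S100A12, and the biological coefficient of variation was 33.0%, 27.6% and 22.9%, with a median of 14.7% over all genes. Among the same 3287 genes, S100A8 was then more variable than 96.3%, S100A9 than 93.6% and S100A12 than 92.5%.

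By label, the SD of log2 normalized counts was 0.82 for high-RFI and 0.52 for low-RFI in S100A9, 0.54 and 0.41 in S100A12 and 0.65 and 0.66 in S100A8. Without steer 16 the high-RFI values were 0.62 for S100A9, 0.33 for S100A12 and 0.34 for S100A8. Without both steers 14 and 16 they were 0.26, 0.24 and 0.295. Steers 14 and 16 held the lowest and the highest value of the high-RFI label in each gene. The low-RFI label kept all its steers. Leaving out both ends of one label lowers its spread in any case, so these values do not rank the labels by spread. The difference in spread was not tested.

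This variation was shared. In 14 of 16 steers all 3 genes lay on the same side of their median, above it in 7 steers and below it in 7. Above were steers 11 and 16 of the high-RFI label and 5 of the low-RFI label, steers 2, 5, 6, 7 and 8. Below were steers 9, 12, 14 and 15 of the high-RFI label and steers 1, 3 and 4 of the low-RFI label. Steers 10 and 13 were divided. In whole blood, fewer cells of a type and less RNA per cell cannot be told apart, and neutrophil counts of the steers are not given in the sources used here.

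**Figure D3:**
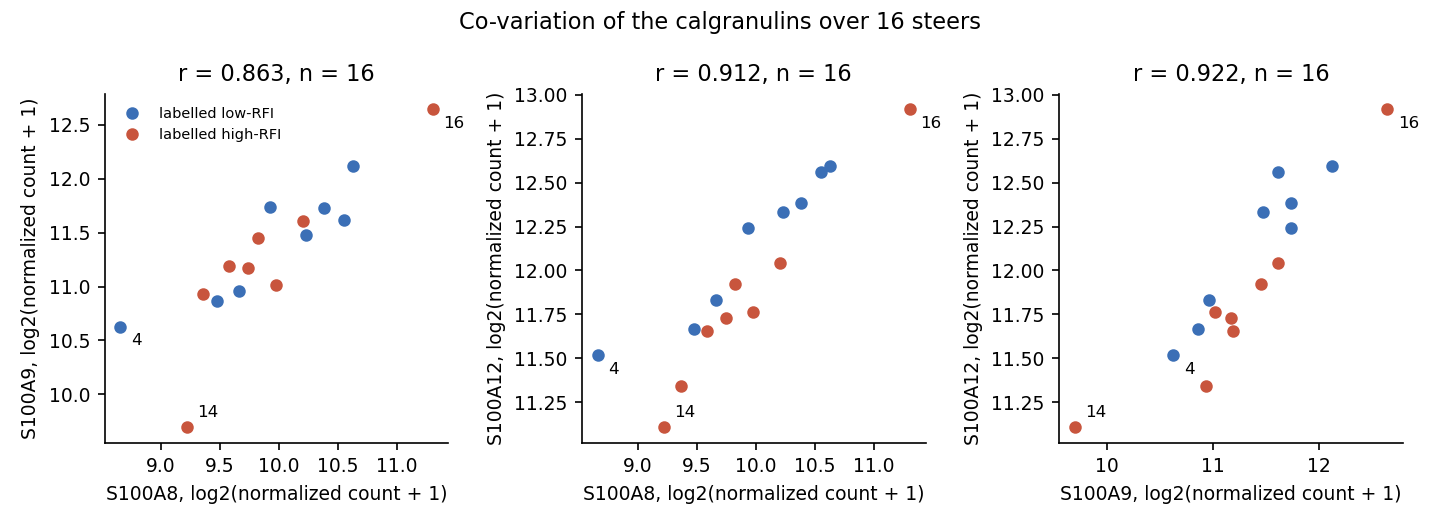
Log2(normalized count + 1) of each pair of calgranulins (both axes), 1 point per steer coloured by label, with steers 4, 14 and 16 numbered. The points rise together in every panel, with Pearson r of 0.863, 0.912 and 0.922.

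S100A8 and S100A9, which act as 1 complex, correlated over the 16 steers with a Pearson r of 0.863 (permutation p = 3e-05, adjusted over 3 pairs 3e-05) and a Spearman rho of 0.906 (permutation p = 3e-05). S100A8 and S100A12 correlated with r = 0.912 (permutation p = 1e-05, the smallest that 100000 resamples can give, adjusted 1.5e-05) and rho = 0.959 (permutation p = 1e-05). S100A9 and S100A12 correlated with r = 0.922 (permutation p = 1e-05, adjusted 1.5e-05) and rho = 0.921 (permutation p = 1e-05). The order of the 3 coefficients changed with the steers left out, and rho put S100A8 and S100A12 first. Without steer 14 r was 0.9198 for S100A8 and S100A9, the partners in calprotectin, 0.916 for S100A8 and S100A12 and 0.918 for S100A9 and S100A12. Without steer 4 the values were 0.883, 0.951 and 0.917. The differences between the coefficients were not tested.

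The correlations held within each label. In the 8 steers labelled high-RFI r was 0.886 for S100A8 and S100A9 (exact permutation p = 0.00444), 0.981 for S100A8 and S100A12 (exact permutation p = 0.000149) and 0.944 for S100A9 and S100A12 (exact permutation p = 0.00117). In the 8 steers labelled low-RFI the values were 0.899 (exact permutation p = 0.00161), 0.959 (exact permutation p = 2.48e-05) and 0.948 (exact permutation p = 0.00134). S100A8 and S100A12 placed the 8 steers labelled low-RFI in the same order, with rho = 1 (exact permutation p = 4.96e-05). Left out were also the 2 steers farthest from the median of the gene on the horizontal axis, steers 4 and 16 for S100A8 and steers 14 and 16 for S100A9. Then r was 0.831 for S100A8 and S100A9, 0.948 for S100A8 and S100A12 and 0.886 for S100A9 and S100A12. Without steers 14 and 16 the first 2 were 0.874 and 0.880.

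Over all 16 steers, each calgranulin had the others among its nearest genes. Of the 13264 other genes tested, the one that followed S100A12 most closely was S100A9, and the next was S100A8. Ranked by r with S100A8, S100A12 was number 4 and S100A9 number 12. Ranked by r with S100A9, S100A12 was number 3 and S100A8 number 52. The median r of all genes with S100A12 was -0.016, with percentiles 5 and 95 at -0.52 and 0.61, so that correlations of moderate size were common among these 16 libraries. Without steer 14, in which S100A9 was low beyond the other 2, S100A8 was number 4 and S100A12 number 5 for S100A9, and without steer 16 S100A8 was number 89. For S100A12 the others were numbers 1 and 2 without steers 14 and 16, and numbers 2 and 3 without steer 16. Over 8 steers more genes reached a high r, and percentile 95 of r with S100A12 was 0.84 within the high-RFI and 0.68 within the low-RFI label. Within the high-RFI label S100A9 was number 75 and S100A8 number 4 for S100A12, S100A9 was number 256 and S100A12 number 1 for S100A8, and S100A8 was number 376 and S100A12 number 121 for S100A9. Within the low-RFI label S100A9 was number 10 and S100A8 number 4 for S100A12, S100A9 was number 54 and S100A12 number 6 for S100A8, and S100A8 was number 36 and S100A12 number 3 for S100A9.

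**Figure D4:**
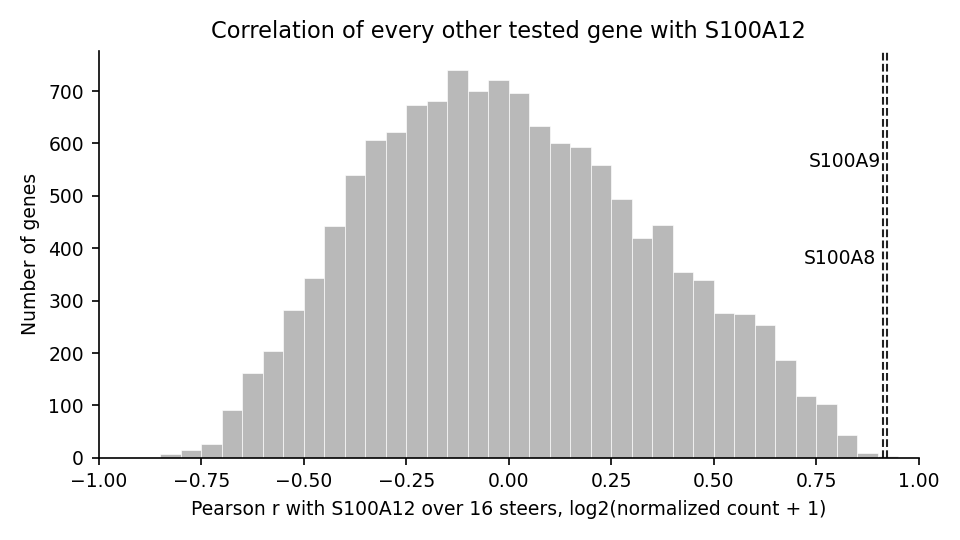
Number of genes (vertical axis) by Pearson r with S100A12 over the 16 steers (horizontal axis, bins of 0.05) for the 13264 other genes tested, with S100A9 and S100A8 as dashed lines. S100A9 at 0.922 and S100A8 at 0.912 are the highest 2 of all genes, while the median gene lies at -0.016.

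Correlations of the calgranulins with depth were weaker and did not pass the test. Against the total counts on genes, r was 0.320 for S100A8 (permutation p = 0.226), 0.294 for S100A9 (permutation p = 0.269) and 0.222 for S100A12 (permutation p = 0.414), with rho of 0.241, 0.285 and 0.282 (permutation p = 0.368, 0.286 and 0.290) and adjusted p of at least 0.368. Without the 2 steers farthest in depth, steers 4 and 6, r was -0.132, 0.0969 and -0.0499. Within the low-RFI label, which held the shallowest and the deepest library, r was, untested, 0.492, 0.392 and 0.294, and within the high-RFI label 0.0142, 0.237 and 0.0423.

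The ratio between 2 calgranulins in the same steer cancels the size factor and whatever raises both by the same factor. A shared but unequal rise is not cancelled, and S100A12 varied less than S100A8 (SD of log2 values 0.50 against 0.63). The ratio of S100A12 to S100A8 was 4.69 in steer 16, highest in all 3 genes, and 11.2 in steer 4, lowest in S100A8. In steer 14, lowest in S100A9 and S100A12, it was 5.68. Whether this ratio follows the shared level was not tested. Of the 3 ratios, that of S100A12 to S100A8 was lower in the steers labelled high-RFI. It ranged there from 4.69 over a median of 5.86 to 6.56, and from 6.01 over 6.74 to 11.2 in the steers labelled low-RFI. Of the 8 steers labelled high-RFI, 4 (steers 10, 11, 14 and 16) fell short of the lowest low-RFI value, and 5 of the 8 labelled low-RFI exceeded the highest high-RFI value, with the others overlapping. The difference in log2 ratio was -0.30, with a 95% interval of -0.54 to -0.07 (two-sided exact permutation test, p = 0.00777, adjusted over the 3 ratios 0.0233). The geometric mean ratios were 5.75 and 7.06. In the same test of every other gene against S100A8, 45 of 13264 genes had a p under 0.05, 0.339%. For a gene that does not follow S100A8, the ratio carries the spread of S100A8 itself, and a small p is then unlikely. This share therefore does not measure how rare the difference in S100A12 to S100A8 is. The call did not survive every omission. The adjusted exact permutation p was 0.0583 without steer 16, 0.0555 without steer 10 and 0.0527 without steer 11, where the difference was -0.25, -0.28 and -0.29. Without both steers 14 and 16 the difference was -0.24 (adjusted exact permutation p = 0.0754). Without steer 4, the steer with the highest ratio and the fewest counts, it was -0.20 (adjusted exact permutation p = 0.0480).

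**Figure D5:**
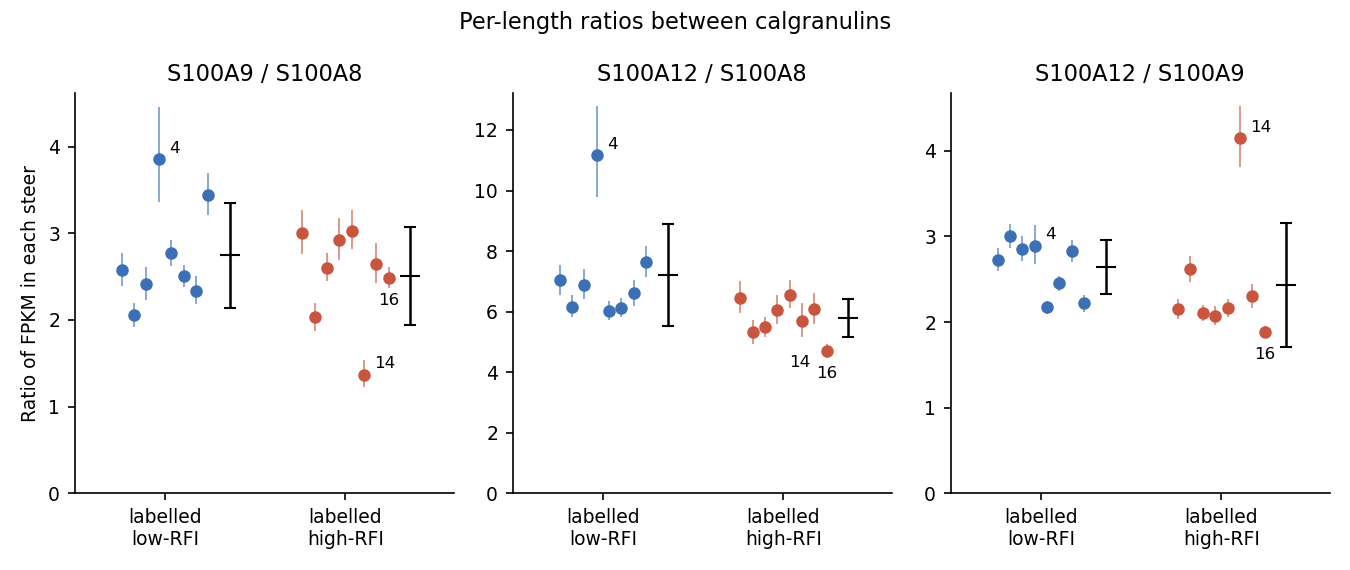
Ratio of FPKM between pairs of calgranulins in each steer (vertical axes, linear from 0), by label (horizontal axis), with exact 95% counting intervals as thin bars, the mean and SD of each group in black, and steers 4, 14 and 16 numbered. In the middle panel the steers labelled high-RFI lie between 4.69 and 6.56 and those labelled low-RFI between 6.01 and 11.2.

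The other ratios did not differ beyond the spread between steers. S100A9 to S100A8, the proportion of the calprotectin partners, ranged from 1.37 over 2.62 to 3.03 in the steers labelled high-RFI and from 2.05 over 2.54 to 3.86 in those labelled low-RFI. The difference in log2 ratio was -0.14, with an interval of -0.52 to 0.21 (exact permutation p = 0.451, adjusted 0.451), and it was -0.0059 without steers 14 and 16. S100A12 to S100A9 ranged from 1.89 over 2.16 to 4.15 in the steers labelled high-RFI and from 2.17 over 2.78 to 3.004 in those labelled low-RFI, with a difference of -0.15 and an interval of -0.42 to 0.15 (exact permutation p = 0.302, adjusted 0.451). In the same test of every other gene against S100A9, 0.452% of genes had a p under 0.05, a share with the same limit as that for S100A8. Steer 14 had the highest ratio of S100A12 to S100A9, and without it the difference was -0.27 (adjusted exact permutation p = 0.0254). Leaving out the highest value of a label lowers its mean in any case, so this p does not test the labels. In the 15 other omissions of 1 steer the difference stayed short of 0.05. Without both steers 14 and 16 it was -0.24 (adjusted exact permutation p = 0.0689).

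Other genes were ranked by their likeness to the mean of the 3 standardized profiles. Of the members, which are part of that mean, S100A8 had r = 0.958, S100A9 r = 0.961 and S100A12 r = 0.978, above all others. Against it 5 of 13262 other genes had r of at least 0.9 over the 16 steers, 0.0377%, and 123 had r of at least 0.8, 0.927%. Without steers 14 and 16, 0 genes reached 0.9 and 13 reached 0.8, 0.0980%. Steer 14 had the lowest and steer 16 the highest value of the mean profile, -1.75 and 2.03. Leaving out both ends of a range tends to lower r, and whether the counts rested on these steers alone was not tested. The most alike was ENSBTAG00000000111, with r = 0.932 and between 608 and 999.7 normalized counts, a much narrower range than that of any calgranulin. Within the labels its r was 0.9754 for high-RFI and 0.889 for low-RFI, and without steers 14 and 16 it was 0.861. The next was ENSBTAG00000003882, with r = 0.928, 0.880 without steers 14 and 16, and between 300.98 and 865 normalized counts. In the opposite direction were ENSBTAG00000039766, with r = -0.851 and between 550 and 759 normalized counts, and ENSBTAG00000002721, with r = -0.849 and between 1099 and 2561. Without steers 14 and 16 their r was -0.816 and -0.691. No gene reached -0.9, and 17 lay at -0.8 or lower, 5 without steers 14 and 16. These genes share libraries and size factors with the calgranulins, and their names and cell types were not analysed here.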

How the data were processed

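Whole-blood RNA-seq of 16 steers was used, 8 per label, with replicates numbered by the sample titles. The steers are separate animals. According to the paper and the labels, the authors used Trimmomatic 0.39 for trimming and HISAT2 2.2.1 for alignment to ARS-UCD1.2, then counted reads per gene. Not given in the sources used here are the annotation, the strand setting and whether marked duplicates were counted. Raw counts were deposited by the authors as whole numbers, from 4.80 to 12.2 M per steer. The normalized counts, which the authors deposited as a signal for each gene, are these counts over 1 size factor per steer, from 0.622 to 1.46. The deposited FPKM are the normalized counts divided by gene length, and their sum per steer runs from 693861 to 1103242. Lengths recovered from FPKM were whole numbers to within 0.001 bp for 100% of 21016 genes.

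Raw counts were compared with edgeR 4.0.16 (quasi-likelihood fit, robust, after filterByExpr and TMM, p adjusted by Benjamini-Hochberg over all genes), with DESeq2 1.42.0 and limma 3.58.1 as alternatives, in R 4.3.3. Single values and ratios were compared with exact permutation tests and correlations with 100000 resamples over 16 steers or all 40320 orders of 8, in scipy 1.17.1 and numpy 2.4.6. Log2 values of normalized counts carry a pseudocount of 1. Ratio intervals per steer are exact binomial at 95% and cover counting error only. The fits and permutation tests were tested on simulated data. The members, lists and tests were chosen with earlier results of these data known. Named were the 3 members, the 2 genes most alike and the 2 most opposite. Lists by symbol (S100 family, receptors, granule proteins, blood cell markers) were not analysed here, because the RefSeq table of ARS-UCD2.0 pairs 0 identifiers with a symbol, and so the blood cells were not checked by markers. No sequences are shown. The alternatives were other normalizations, filters, tests and units, and leaving out each steer. Leaving out steers 14 and 16 together, and all spread and likeness values without them, were added after the data were examined.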

Additional observations from a re-analysis of the deposited data

Results flagged for a closer look

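In 12 groups of 8 steers, the 3 calgranulins and their 3 ratios under each label, the steer at either end was compared with its neighbour. The gap, as a share of the group's range, was above the 0.526 that Dixon's test sets in 5 groups, each time at the high end. For normally distributed values chance gives about 1 in 20, and groups that share genes are not independent. The gaps were taken on linear normalized counts and ratios, and log2 values were not tested. The count of 5 was therefore not weighed against chance.

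Steer 16, labelled high-RFI, was the highest of its group in all 3 genes. It had 2529 normalized counts of S100A8 against 1179 in the next steer (gap over range 0.698), 6401 of S100A9 against 3126 (0.588) and 7738 of S100A12 against 4217 (0.637). It was not extreme in depth, with 7.66 M counts.

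Steer 4, labelled low-RFI, had the highest ratio of S100A12 to S100A8, 11.2, with a gap of 0.686 of the range to the next, 7.63. The exact counting interval of its ratio, 9.77 to 12.8, did not reach that of the next, 7.13 to 8.17. Its library was the shallowest, and the part of depth in this ratio was not tested.

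The highest ratio of S100A12 to S100A9 was that of steer 14, labelled high-RFI, at 4.15, with a gap of 0.677 of the range to the next, 2.62. Its S100A9, at 829.4 normalized counts, was the lowest of all 16 steers, while its S100A8, at 595, was above that of steer 4.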

How the results depend on the processing

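No paired analysis was possible because the steers are separate animals, and no pairing between the labels is given in the sources used here. The 9 alternatives that keep all steers kept the direction of the 3 fold changes and left all of them short of FDR 0.05. Without 1 steer the log2 fold change ran from -0.32 to 0.093 for S100A8, which turned positive in 10 of 16 fits, from -0.36 to 0.075 for S100A9, which turned positive in 2, and from -0.51 to -0.20 for S100A12. At FDR 0.05 edgeR called 0 genes, and the count was 7 with DESeq2, between 0 and 25 without 1 steer (25 without steer 14, 2 without steer 16) and 26 without steers 14 and 16, and the cause was not tested. The correlations kept their direction and their side of 0.05 in all settings and without any 1 steer, at 0.803 or more. Without 1 steer the difference in log2 ratio ran from -0.33 to -0.20 for S100A12 to S100A8 and from -0.27 to -0.11 for S100A12 to S100A9. Without steers 14 and 16 the first was -0.24 and short of 0.05. For S100A9 to S100A8 it ran from -0.20 to -0.022. Counting error limits S100A8 most, with a half-width of up to 12.6% of a count in steer 4.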
